A study of Mus musculus with 12 samples.

Results

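Gene expression in oligodendrocyte-enriched cells was compared between 4 mice labelled RalAB cKO and 4 mice labelled RalA cKO. Both groups lack RalA by their labels, so the only labelled difference is the added deletion of RalB. The 8 libraries, 1 per mouse by the labels, were chosen by title from the 12 libraries of the series, and every gene was included. RalA cKO mice carried CnpCre, RalAflox/flox and Rosa26-StopFlox-TdTomato. RalAB cKO mice carried the same alleles plus RalBflox/flox. The remaining 4 libraries, from control mice with CnpCre and Rosa26-StopFlox-TdTomato and no floxed Ral allele, were left out of the contrast and are given only as levels. All groups therefore share the Cre driver and the red reporter. Spinal cords were taken at postnatal day 10, and cells were sorted for tdTomato and a large forward scatter area, per the labels. Cnp, whose promoter drives the Cre, encodes a myelin enzyme, and the allele recombines in myelinating glia and their precursors.

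RalA and RalB are closely related small GTPases of the Ras family. In the GTP-bound state they bind the exocyst, the complex that tethers secretory vesicles to the plasma membrane, and further effectors such as filamin and phospholipase D. Oligodendrocytes wrap axons in myelin and need large amounts of newly made membrane, with much cholesterol and galactolipid. During maturation they pass from precursors through newly formed cells, which carry genes such as Enpp6 and Tns3, to mature cells that add genes such as Mog, Opalin, Apod and Klk6.

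Depth was 11.23 to 15.44 M estimated counts per library. Between 12155 and 13067 genes per library were at 1 or more per M counts of the library, without scaling. Below, CPM is counts per M scaled counts unless said otherwise. The oligodendrocyte genes Mbp, Mog, Mag and Sox10 were high in every library, with Mbp at 40000 to 62500 CPM. Libraries separated by group along the first principal component (46.6% of the variance), with RalA cKO at -41.9 to -29.3 and RalAB cKO at 17.8 to 45.9. RalAB cKO 1 lay nearest to the other group. No source used here states whether a mouse was male or female. Xist was at 227, 400 and 169 CPM in RalA cKO 2, RalAB cKO 1 and RalAB cKO 2, at 10.4 CPM in RalAB cKO 3 and at 0 to 0.447 CPM in the other 4 libraries. Summed CPM of 4 Y-linked genes (Ddx3y, Eif2s3y, Kdm5d and Uty) was 49.9 to 108 in RalA cKO 1, 3 and 4 and RalAB cKO 3 and 4, 8.58 in RalA cKO 2 and 0.327 to 0.445 in RalAB cKO 1 and 2. RalA cKO 2 and, with less Xist, RalAB cKO 3 thus held RNA of both kinds, and whether each of these libraries holds cells of a single mouse was not tested. The groups differ in this balance, so counts are also given with these 4 genes as a covariate and for the 5 libraries high in them.

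Neither targeted gene changed between the groups. Ralb (chromosome 1, 119470305 to 119504794, GRCm38) was at 17.5, 17.4, 13.4 and 13.4 CPM in RalA cKO mice 1 to 4 and at 14.0, 17.2, 15.9 and 16 CPM in RalAB cKO mice 1 to 4. The groups overlapped, and the 4 control libraries were at 15.1 to 23.3 CPM. The difference, RalAB cKO minus RalA cKO on the log2 scale as in all that follows, was 0.03 ± 0.14 (SE, n = 4 and 4, adjusted p = 0.923, edgeR quasi-likelihood test with Benjamini-Hochberg adjustment). Counts at the level of the gene thus did not show the labelled RalB deletion, and groups are named here as labelled. The exons removed by the floxed allele are not given in the sources used here, so the level of a shortened mRNA cannot be told apart from that of the intact one. Ralb-201, the transcript with 5 exons that held 99.8% of Ralb TPM in RalAB cKO, differed by 0.03 ± 0.16 (adjusted p = 0.988).

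Rala (chromosome 13, 17880571 to 17944239) was at 33.1, 42.4, 42.7 and 41.8 CPM in RalA cKO and at 42.9, 32.2, 39.8 and 36.1 CPM in RalAB cKO. The difference was -0.08 ± 0.12 (adjusted p = 0.749). Control libraries 1 to 4 were at 35.5, 59.3, 47 and 56.3 CPM, and control 1 lay within the range of both groups. Rala RNA thus remained in both groups, and gene counts did not by themselves show the labelled RalA deletion. Its short transcript Rala-202 had 0 counts in all 4 RalA cKO libraries and in RalAB cKO 1 to 3, and 3.354 counts in RalAB cKO 4. The 4 control libraries held 141.2 counts of it in sum, so its near absence was shared by the groups compared.

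Of 13046 tested genes, 1614 (12.4%) passed an adjusted p of 0.05. RalAB cKO was higher in 964 of them (7.39% of tested genes) and lower in 650 (4.98%). Rises were larger than falls: their median was 1.27, against -0.665 for falls, and 552 rises but 153 falls reached 2-fold. The median over all tested genes was -0.0237. In 2292 genes (17.6%) the 4 libraries of each group lay wholly above or below those of the other. With the 4 Y-linked genes as a covariate 880 genes were higher and 547 lower, and in the 5 libraries high in these genes 725 were higher and 417 lower. Leaving out RalA cKO 2 gave 408 lower genes and leaving out RalAB cKO 4 gave 429.

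**Figure D1:**
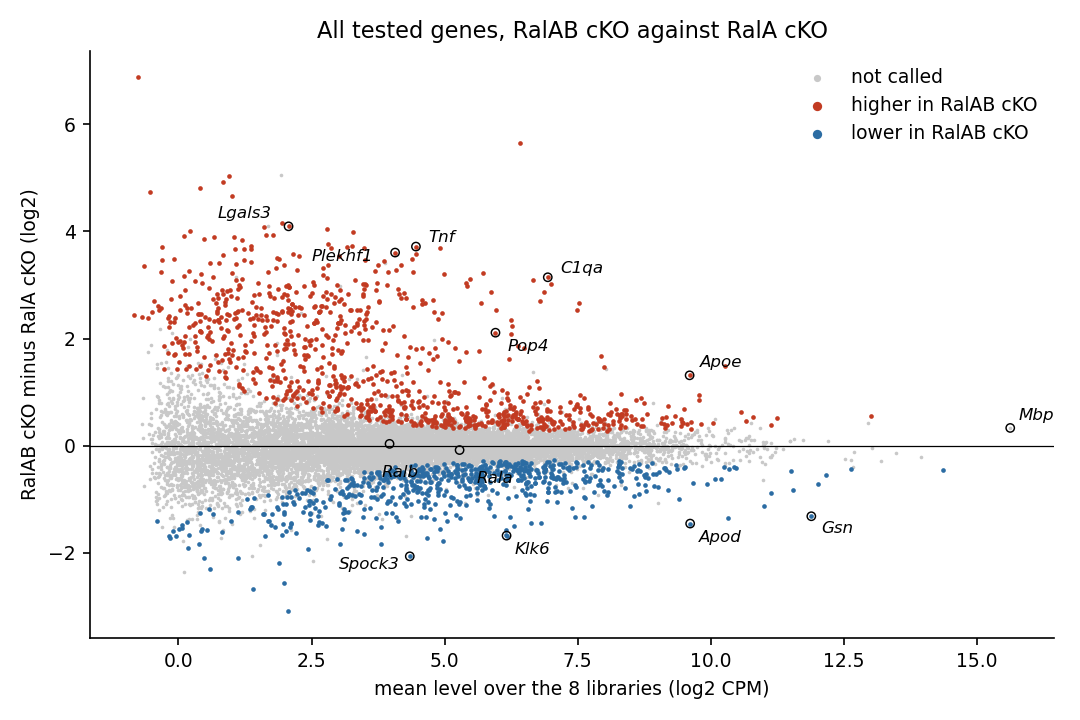
Log2 difference of RalAB cKO from RalA cKO (y axis) against the mean level over the 8 libraries (x axis, log2 CPM) for every tested gene. Red points are the 964 genes called higher, blue points the 650 called lower and grey points the genes not called, and most rises above 2 on the y axis lie at low levels.

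Named lists of genes moved in opposite directions. Genes of microglia, phagocytes, complement, cytokines and the immediate early response were mostly higher in RalAB cKO. Genes of late mature oligodendrocytes, myelin proteins and cholesterol synthesis were mostly lower, genes of fatty acid synthesis were lower or not called with 1 exception, and genes of newly formed oligodendrocytes were higher or not called. Every list count below is read against the 7.39% higher and 4.98% lower over all tested genes. Some genes are in more than 1 list. The lists are descriptions of these libraries and carry no test of their own.

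**Figure D2:**
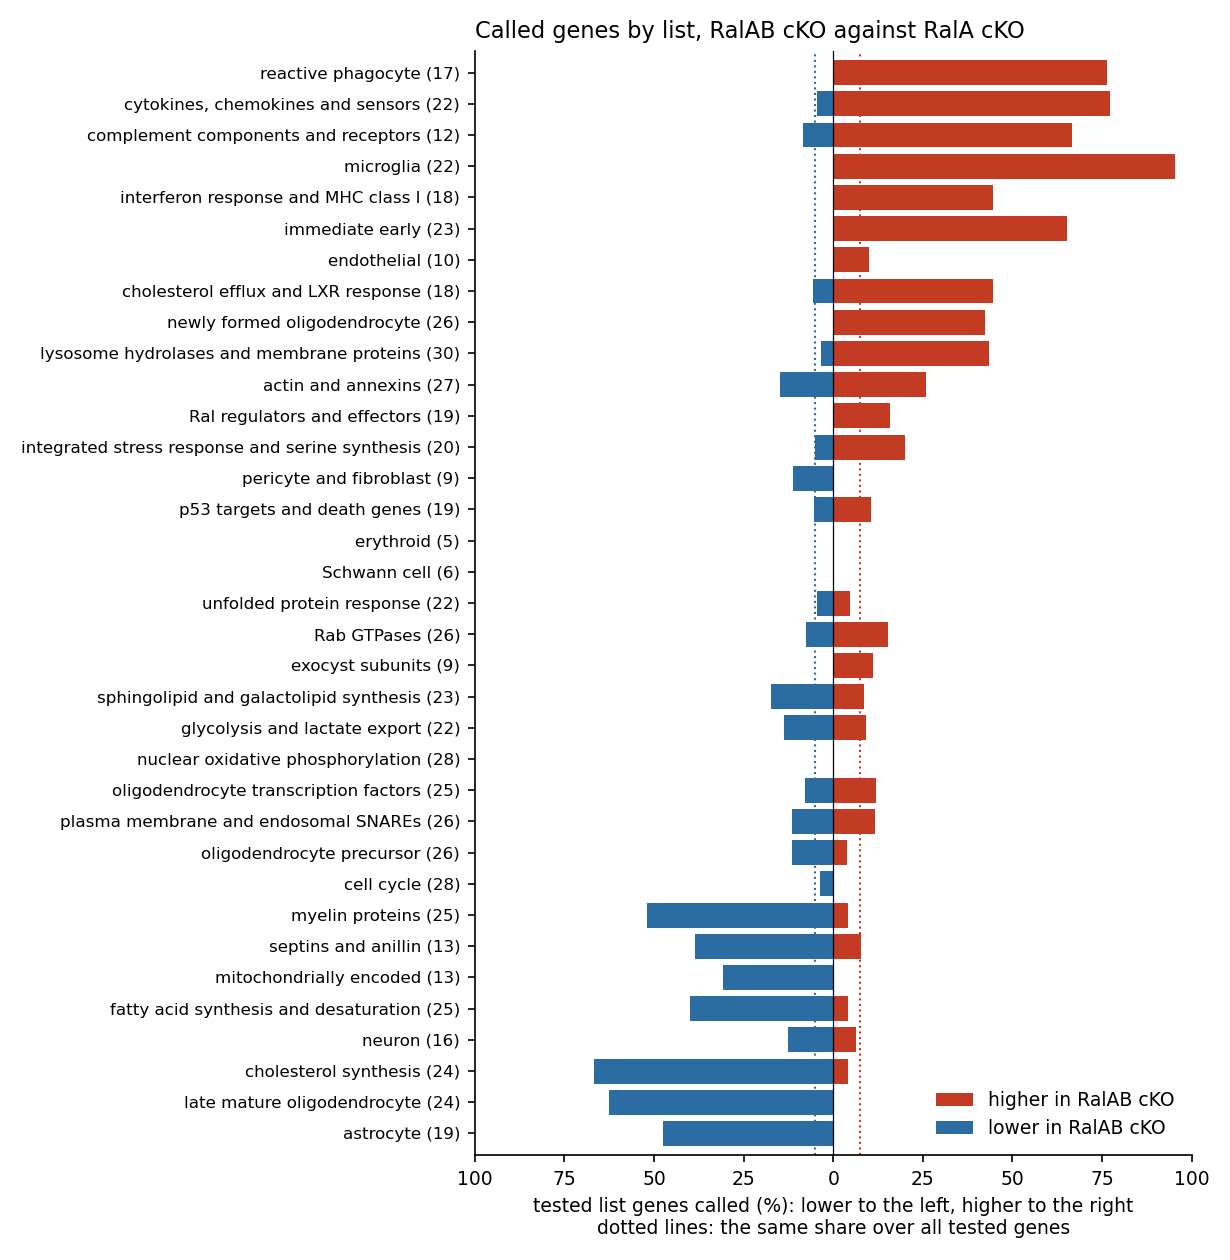
Share of the tested genes of each list with at least 5 tested genes that were called higher (red, to the right) or lower (blue, to the left) in RalAB cKO, with the number of tested genes in brackets and lists ordered by median log2 difference. Dotted lines mark 7.39% and 4.98%, the shares over all tested genes.

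Genes of late mature oligodendrocytes were lower in RalAB cKO. Of 24 tested genes of this list 15 fell, 0 rose and 9 did not pass, with a median of -0.54. Together the list held 1.58%, 1.65%, 1.45% and 1.60% of counts in RalA cKO mice 1 to 4 and 0.95%, 1.00%, 0.931% and 0.79% in RalAB cKO mice. All 4 RalAB cKO libraries lay below all 4 RalA cKO libraries, and control libraries held 1.2% to 1.59%. In bulk samples, fewer cells of a type and less RNA per cell cannot be told apart.

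Klk6, a secreted serine protease of mature oligodendrocytes, was at 105, 124, 88.1 and 121 CPM in RalA cKO and at 29.9, 29.9, 48.1 and 28.5 CPM in RalAB cKO. It fell by 1.68 on the log2 scale (SE 0.17, adjusted p = 0.000102). RalA cKO was above all other libraries, and controls, at 35.5 to 64.6 CPM, overlapped RalAB cKO through its library 3. Gsn, the actin-severing protein gelsolin, was at 5550, 6210, 4300 and 5560 CPM in RalA cKO and at 2090, 2430, 2360 and 1780 CPM in RalAB cKO, with controls at 3590 to 5630 CPM. It fell by 1.32 (SE 0.14, adjusted p = 8.24e-05). Here the RalAB cKO libraries stood below the other 8. Apod, a lipid-binding lipocalin, behaved alike, at 907 to 1330 CPM in RalA cKO, 328 to 470 CPM in RalAB cKO and 935 to 1490 CPM in controls (-1.45 ± 0.14, adjusted p = 6.01e-05). Adssl1, an enzyme of AMP synthesis, was at 124 to 157 CPM against 43.7 to 64.3 CPM (-1.45 ± 0.13, adjusted p = 2.96e-05).

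Among 25 genes of myelin proteins 13 fell, 1 rose and 11 did not pass, with a median of -0.40. The count of falls was 8 without RalAB cKO 4 and 8 without RalA cKO 4. Ermn, a cytoskeletal protein of myelinating cells, was at 241, 245, 268 and 244 CPM in RalA cKO and at 127, 94.0, 103 and 74.8 CPM in RalAB cKO (-1.32 ± 0.14, adjusted p = 0.000101). Opalin, a membrane protein of mature oligodendrocytes, was at 235 to 357 CPM in RalA cKO and 129 to 148 CPM in RalAB cKO (-1.13 ± 0.12, adjusted p = 8.25e-05). The range in controls, 153 to 218 CPM, lay between. Aspa, which breaks down N-acetylaspartate, was at 97.8 to 116 CPM against 30.3 to 52.8 CPM (-1.34 ± 0.15, adjusted p = 0.000133). Its controls, at 45.3 to 75.3 CPM, lay below RalA cKO and overlapped RalAB cKO. Omg, a GPI-anchored glycoprotein of oligodendrocytes and neurons, was at 173 to 196 CPM against 71.0 to 107 CPM (-1.05 ± 0.12, adjusted p = 0.000179).

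Of 4 further myelin genes, Mog and Mal fell and Mbp and Mag did not pass. Mog and Mal, chosen after their values were seen, fell by 0.88 (SE 0.11, adjusted p = 0.000221) and 1.36 (SE 0.17, adjusted p = 0.000279). Mbp was at 42500, 46600, 40000 and 49600 CPM in RalA cKO and at 44400, 57500, 60300 and 62500 CPM in RalAB cKO. The groups overlapped through RalAB cKO 1, and Mbp did not pass (0.33 ± 0.13, adjusted p = 0.137), but it passed without that library (0.45, adjusted p = 0.0141). Mag did not pass either (-0.22 ± 0.15, adjusted p = 0.42). The summed share of the myelin list was 12.7% to 13.7% in RalA cKO and 12.3% to 13.5% in RalAB cKO.

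Genes of newly formed oligodendrocytes were higher. Of 26 tested genes 11 rose, 0 fell and 15 did not pass, with a median of 0.36. Rises numbered 18 without RalAB cKO 1, 7 without RalA cKO 2, 17 by DESeq2 and 17 with library totals. Their summed share was 2.60%, 2.56%, 2.69% and 2.63% in RalA cKO and 3.41%, 3.47%, 3.45% and 3.62% in RalAB cKO. The groups lay well apart, and controls were at 2.81% to 3.06%. Tns3, a focal adhesion protein, was at 538, 559, 596 and 514 CPM in RalA cKO and at 895, 895, 879 and 884 CPM in RalAB cKO (0.69 ± 0.09, adjusted p = 0.000294). Cemip2, a cell surface hyaluronidase, was at 205 to 313 CPM against 455 to 523 CPM (0.85 ± 0.13, adjusted p = 0.00078). Cnksr3, a scaffold of kinase signalling, was at 392 to 492 CPM against 573 to 857 CPM (0.74 ± 0.12, adjusted p = 0.0018). Nfasc, a cell adhesion molecule of the axon-glia contact, was at 5730 to 7220 CPM against 9090 to 10100 CPM (0.55 ± 0.11, adjusted p = 0.00417). It is the 1 gene of the myelin list that rose, and without RalAB cKO 1 there were 2.

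**Figure D3:**
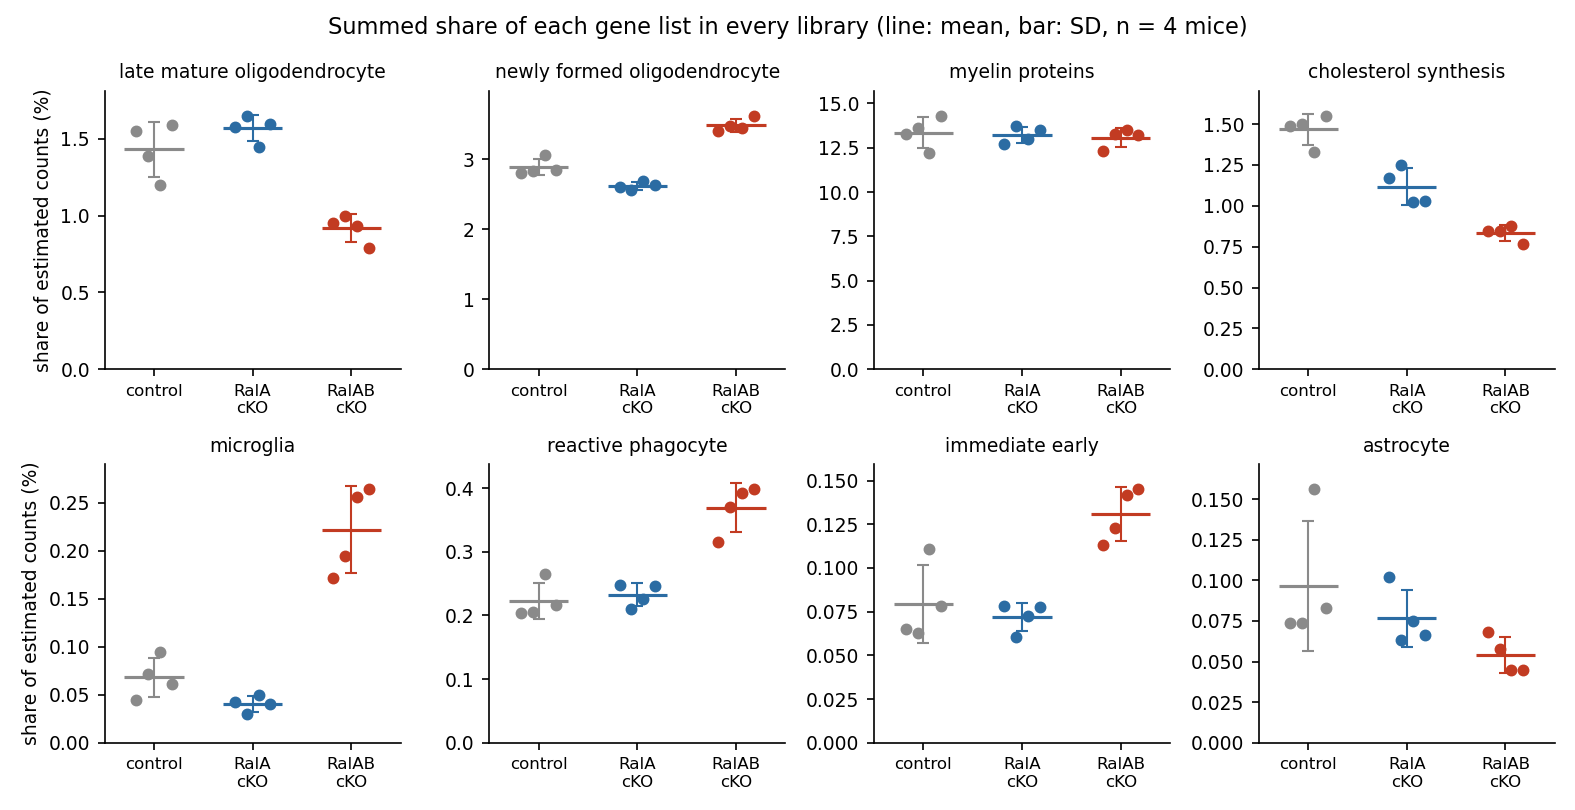
Share of estimated counts (%) held by each of 8 gene lists in every library, for control (grey), RalA cKO (blue) and RalAB cKO (red), with the mean as a line and the SD as a bar. RalAB cKO lies below RalA cKO for late mature oligodendrocyte and cholesterol synthesis genes, above it for newly formed oligodendrocyte, microglia, reactive phagocyte and immediate early genes, and overlaps it for myelin proteins and astrocyte genes.

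Few precursor genes were called, and most leaned lower. Of 26 tested genes 1 rose and 3 fell, with a median of -0.14, and 5 had a log2 difference above 0. The median ranged from -0.41 to -0.13 with 1 library left out. Falls numbered 7 without RalAB cKO 1 and 1 without RalAB cKO 2, 3 or 4 or RalA cKO 1. Mmp15, a membrane matrix metalloproteinase, was at 101 to 143 CPM in RalA cKO and 53.1 to 79.3 CPM in RalAB cKO (-0.92 ± 0.14, adjusted p = 0.00109). Sox4, a transcription factor of immature cells, was at 48.7 to 56.4 CPM against 67.9 to 86.0 CPM (0.60 ± 0.10, adjusted p = 0.0017). Among 25 transcription factors of the lineage 3 rose and 2 fell. Tcf7l2, a Wnt effector of the newly formed stage, was at 54.0, 62.4, 83.3 and 72.5 CPM in RalA cKO and at 106, 102, 94.5 and 109 CPM in RalAB cKO (0.60 ± 0.13, adjusted p = 0.00767), and it did not pass in the 5 libraries high in Y-linked genes. Sp7 was at 49.3 to 59.3 CPM against 19.0 to 37.8 CPM (-0.93 ± 0.19, adjusted p = 0.00704). Rises numbered 1 without RalAB cKO 2 or RalA cKO 1 or 2, and falls 1 without RalAB cKO 3 or 4 or RalA cKO 1, 2 or 4.

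Of the cell cycle list, 28 tested genes, 0 rose and 1 fell. That gene was Pttg1, which encodes securin. It was at 20.6, 19.9, 20.6 and 6.62 CPM in RalA cKO and at 7.57, 2.45, 5.27 and 6.08 CPM in RalAB cKO. RalA cKO 4 lay within the RalAB cKO range. The difference was -1.66 ± 0.41 (adjusted p = 0.0266), and it did not pass without any 1 of RalAB cKO 2, 3 and 4 and RalA cKO 1, 2 and 3. Without RalAB cKO 1 the list had 1 rise and 3 falls.

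Most genes of cholesterol synthesis were lower. Of 24 tested genes of the pathway and its control 16 fell, 1 rose and 7 did not pass, with a median of -0.51. Falls numbered 10 without RalA cKO 2, 10 with length offsets and 9 in the 5 libraries high in Y-linked genes. The summed share was 1.17%, 1.25%, 1.02% and 1.03% in RalA cKO and 0.844%, 0.848%, 0.879% and 0.765% in RalAB cKO. No library of the groups overlapped, and all 8 lay below the controls at 1.33% to 1.55%. Cyp51, the lanosterol demethylase, was at 677, 754, 580 and 591 CPM in RalA cKO and at 394, 385, 427 and 323 CPM in RalAB cKO, with controls at 776 to 1010 CPM (-0.77 ± 0.12, adjusted p = 0.000961). Lss, which closes the sterol rings, was at 417 to 595 CPM against 280 to 324 CPM (-0.72 ± 0.12, adjusted p = 0.00127). Nsdhl, a sterol dehydrogenase, was at 156 to 205 CPM against 108 to 131 CPM (-0.64 ± 0.10, adjusted p = 0.00125). Tm7sf2, a sterol reductase, was at 105 to 166 CPM against 46.0 to 77.7 CPM (-1.18 ± 0.17, adjusted p = 0.00109). The 1 rise was Hsd17b7 (0.69 ± 0.18, adjusted p = 0.0338), chosen after its value was seen, and it ended without any 1 of RalAB cKO 1 to 4 or RalA cKO 2.

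The promoter of Hmgcs1, which makes HMG-CoA and was chosen after its value was seen, is shown because it holds the letters read by the factors that raise this pathway when sterols are scarce. Hmgcs1 was at 1360, 1650, 1320 and 1330 CPM in RalA cKO and at 1030, 921, 1010 and 690 CPM in RalAB cKO (-0.63 ± 0.14, adjusted p = 0.00884). Its window from 250 bases before to 50 bases after the start (chr13:119690101-119690400, plus strand, GRCm38.p6, RefSeq) reads 5′ to 3′, with capitals for the sterol regulatory element TCACCCCAC and for CCAAT, the box bound by NF-Y, on either strand:
Hmgcs1: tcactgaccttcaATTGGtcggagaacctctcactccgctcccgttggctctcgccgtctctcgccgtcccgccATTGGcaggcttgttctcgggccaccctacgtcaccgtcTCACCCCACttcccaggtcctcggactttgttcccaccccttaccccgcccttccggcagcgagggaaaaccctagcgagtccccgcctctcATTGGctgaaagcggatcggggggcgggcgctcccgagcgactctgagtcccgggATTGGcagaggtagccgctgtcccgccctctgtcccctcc
A RefSeq window was found for 11 of the 16 lowered genes, which gave 14 windows. The sterol regulatory element letters occurred in 1 of them (7.14%), against 0.551% of all 32851 windows. CCAAT occurred in 11 of the 14 (78.6%), against 37.4% of all windows. Among the 20 windows of all listed cholesterol genes, called or not, CCAAT occurred in 16 (80%) and the sterol regulatory element in 1 (5%). These 20 windows include the 14 of the lowered genes and few others. Whether the letters mark the lowered genes within the list was thus not tested. These are matches of letters on both strands, and the share of short motifs moves with the base composition of the windows.

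Fewer genes of fatty acid synthesis were lower. Of 25 tested genes 10 fell, 1 rose and 14 did not pass, with a median of -0.41. The summed share was 1.31%, 1.33%, 1.15% and 1.14% in RalA cKO and 0.962%, 1.01%, 0.971% and 0.880% in RalAB cKO, and controls were at 1.5% to 1.66%. Acss2, which makes acetyl-CoA from acetate, was at 297, 322, 222 and 286 CPM in RalA cKO and at 101, 118, 121 and 106 CPM in RalAB cKO (-1.34 ± 0.12, adjusted p = 2.92e-05). Scd1, a desaturase, was at 67.5 to 109 CPM against 24.4 to 43.2 CPM (-1.31 ± 0.22, adjusted p = 0.0034). Me1, a source of NADPH, was at 99.0 to 108 CPM against 59.8 to 80.8 CPM (-0.56 ± 0.10, adjusted p = 0.00232). Fads2, a desaturase of polyunsaturated fatty acids, was at 143 to 214 CPM against 111 to 115 CPM (-0.63 ± 0.12, adjusted p = 0.00533), and did not pass in the 5 libraries high in Y-linked genes, where 5 genes of the list fell. For sphingolipids and galactolipids 4 of 23 genes fell and 2 rose. Cers2, the ceramide synthase for very long chains, was at 1210 to 1380 CPM against 746 to 930 CPM (-0.62 ± 0.10, adjusted p = 0.00144). Falls in this list numbered 1 without RalAB cKO 4 or RalA cKO 2 or 4 and 2 without RalAB cKO 2, and they numbered 1 in the 5 libraries high in Y-linked genes. Rises numbered 0 without RalAB cKO 2, 3 or 4 or RalA cKO 2 or 4 and 1 without RalA cKO 1.

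Genes of cholesterol export and of the liver X receptors, which respond to oxysterols, went the other way. Of 18 tested genes 8 rose, 1 fell and 9 did not pass, with a median of 0.45. Abca1, which loads cholesterol onto apolipoproteins, was at 4.74, 2.83, 5.41 and 4.41 CPM in RalA cKO and at 25.3, 18.1, 23.9 and 19.6 CPM in RalAB cKO (2.32 ± 0.21, adjusted p = 3.44e-05). Apoe, the main lipid carrier of the central nervous system, was at 573, 346, 417 and 443 CPM against 738, 1160, 1230 and 1300 CPM (1.31 ± 0.19, adjusted p = 0.0011). Mylip, which marks the LDL receptor for degradation, was at 1.83 to 2.74 CPM against 6.31 to 10.6 CPM (1.84 ± 0.25, adjusted p = 0.000398). Apoc1 was at 0.427 to 0.983 CPM against 2.82 to 7 CPM (2.58 ± 0.38, adjusted p = 0.000842). Phagocytes also express these 4 genes, and microglial genes, described next, rose in the same libraries. Their part in these rises was not tested.

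Microglial genes were higher in every RalAB cKO library. Of 22 tested microglia genes 21 rose, 0 fell and 1 did not pass, with a median of 2.66 (6.31-fold). The count was 21 in every alternative run, each left-out library, the Y-linked covariates and the 5 libraries high in Y-linked genes included. The list held 0.0421%, 0.0297%, 0.0495% and 0.0406% of counts in RalA cKO and 0.172%, 0.195%, 0.256% and 0.264% in RalAB cKO. Controls held 0.045% to 0.0943%, above or within the RalA cKO range and below all RalAB cKO libraries. None of the 22 genes was at 0 in all 8 libraries. These genes were thus a small share of each library, and how their RNA entered a sort gated on tdTomato is not given by the counts.

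Tmem119, a surface protein of microglia, was at 10.6, 7.52, 9.16 and 8.33 CPM in RalA cKO and at 28.5, 29.7, 32.8 and 36.5 CPM in RalAB cKO (1.84 ± 0.14, adjusted p = 2.18e-05). Fcer1g, the common chain of Fc receptors, was at 2.39 to 4.36 CPM against 21.2 to 42.1 CPM (3.37 ± 0.25, adjusted p = 2.34e-05). Olfml3 was at 7.52 to 12.4 CPM against 37.3 to 65.3 CPM (2.48 ± 0.20, adjusted p = 2.89e-05). Itgam, the integrin chain CD11b, was at 3.98 to 8.73 CPM against 32.2 to 50.4 CPM (2.64 ± 0.22, adjusted p = 3.26e-05). Sall1, the gene that did not pass (0.10 ± 0.13, adjusted p = 0.712), was at 85.8 to 117 CPM in RalA cKO and 83.0 to 123 CPM in RalAB cKO.

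Genes of reactive phagocytes were mostly higher. Of 17 tested genes 13 rose, 0 fell and 4 did not pass, with a median of 3.26, and 5 listed genes were not tested. Lyz2, a lysozyme of macrophages, was at 4.56, 1.95, 2.88 and 4.2 CPM in RalA cKO and at 28.8, 36.2, 51.0 and 47.2 CPM in RalAB cKO (3.57 ± 0.26, adjusted p = 2.48e-05). Lgals3, galectin-3, was at 0.177 to 0.786 CPM against 3.93 to 10.9 CPM (4.10 ± 0.47, adjusted p = 0.000157). Cd68, a lysosomal protein of phagocytes, was at 3.89 to 7.26 CPM against 34.4 to 77.2 CPM (3.21 ± 0.28, adjusted p = 7.95e-05). Itgax, the integrin chain CD11c, was at 0 to 1.48 CPM against 5.49 to 18.2 CPM (4.04 ± 0.65, adjusted p = 0.00282). Igf1, chosen after its value was seen, was at 0, 0, 0.262 and 0.285 CPM against 4.01, 3.67, 3.44 and 4.33 CPM (4.66 ± 0.56, adjusted p = 0.000203). Axl, a receptor for apoptotic cells, was at 6.54 to 10.4 CPM against 21.1 to 35.0 CPM (1.70 ± 0.20, adjusted p = 0.000193).

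Complement genes followed. Of 12 tested genes 8 rose and 1 fell, with a median of 2.76, and 8 listed genes were not tested. C1qa, C1qb, C1qc and Itgam are also in the microglia list, so the counts of these lists share genes. C1qa, a chain of the recognition molecule C1q, was at 30.0, 16.6, 25.9 and 26.7 CPM in RalA cKO and at 136, 221, 265 and 259 CPM in RalAB cKO (3.15 ± 0.24, adjusted p = 4.64e-05). C3ar1, a receptor for the C3a fragment, was at 0.973 to 2.56 CPM against 13.9 to 26.6 CPM (3.48 ± 0.29, adjusted p = 2.89e-05). Itgb2, the integrin partner of CD11b, was at 1.5 to 3.67 CPM against 13.4 to 25.3 CPM (3.03 ± 0.28, adjusted p = 4.37e-05). The fall was Clu, clusterin, chosen after its value was seen (-0.70 ± 0.18, adjusted p = 0.0261), and it did not pass without RalAB cKO 1 or RalAB cKO 3.

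Cytokines, chemokines and pattern sensors were higher, and most in RalAB cKO 3 and 4. Of 22 tested genes 17 rose, 1 fell and 4 did not pass, with a median of 2.87. The fall ended without any 1 of RalAB cKO 1, 3 and 4 and RalA cKO 1 and 2. Tnf, a central inflammatory cytokine, was at 3.22, 1.95, 2.01 and 5.05 CPM in RalA cKO and at 15.1, 18.6, 61.2 and 69.0 CPM in RalAB cKO (3.72 ± 0.63, adjusted p = 0.00694). Controls reached 0.851 to 14.0 CPM. Ccl3, a chemokine for myeloid cells, was at 2.30 to 3.93 CPM against 17.8 to 40.0 CPM (3.28 ± 0.28, adjusted p = 4.37e-05). Ccl4 was at 0.447, 0.707, 2.09 and 1.28 CPM against 7.87, 10.6, 25.6 and 29.2 CPM (3.99 ± 0.56, adjusted p = 0.00124). Tlr2, a receptor for bacterial lipoproteins, was at 0.536 to 2.44 CPM against 8.76 to 28.6 CPM (3.72 ± 0.52, adjusted p = 0.0011). Nlrp3, the inflammasome sensor, was at 0.783 to 1.88 CPM against 4.83, 3.92, 12.8 and 49.8 CPM. Its difference of 3.73 ± 0.95 passed narrowly (adjusted p = 0.0429) and did not pass without RalAB cKO 3 or without any 1 of the 4 RalA cKO libraries. Cd83, an activation marker, was at 3.06 to 4.86 CPM against 19.9, 21.2, 65.3 and 119 CPM (3.70 ± 0.68, adjusted p = 0.011).

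The promoter of Tlr2 is shown because the letters bound by NF-kB, the factor downstream of such sensors, recurred in this list. Its window (chr3:83841559-83841858, minus strand, GRCm38.p6, RefSeq) reads 5′ to 3′ as below, with NF-kB matches in capitals, of which the first 2 overlap:
Tlr2: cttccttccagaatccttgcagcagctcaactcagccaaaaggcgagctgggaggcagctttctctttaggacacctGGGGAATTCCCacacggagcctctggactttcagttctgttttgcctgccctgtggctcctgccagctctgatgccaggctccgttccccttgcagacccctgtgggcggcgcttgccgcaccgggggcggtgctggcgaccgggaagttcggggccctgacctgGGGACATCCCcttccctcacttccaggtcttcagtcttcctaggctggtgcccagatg
Windows were found for 11 of the 17 raised genes, 15 windows in all, and 7 (46.7%) held the NF-kB letters, against 8.46% of all 32851 windows. Among windows of the raised microglia genes 2 of 16 held them (12.5%). The PU.1 letters GAGGAAGT occurred in 1 of those 16 (6.25%), against 3.20% of all windows. Windows of listed genes that did not rise were not counted. Whether the letters mark the raised genes or the list as a whole, and any part of NF-kB in the rises, was therefore not tested.

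Antigen presentation and interferon genes rose in part. Of 18 tested genes 8 rose, 0 fell and 10 did not pass, with a median of 1.27. B2m, the light chain of MHC class I, was at 24.2, 18.3, 19.0 and 16.2 CPM in RalA cKO and at 58.5, 67.0, 66.1 and 68.1 CPM in RalAB cKO (1.74 ± 0.13, adjusted p = 1.71e-05). H2-D1, a class I heavy chain, was at 20.9 to 28.0 CPM against 55.7 to 99.8 CPM (1.77 ± 0.19, adjusted p = 0.00016), with the reservation that reads of class I genes can be shared among near-identical copies. Tap1, which loads peptides, was at 1.40 to 1.64 CPM against 5.06 to 5.99 CPM (1.89 ± 0.22, adjusted p = 0.000179). Bst2, an interferon-induced antiviral protein, was at 0.873 to 1.5 CPM against 9.21, 5.14, 5.03 and 4.64 CPM (2.33 ± 0.31, adjusted p = 0.000434). H2-Ab1, a class II chain, was the largest rise by the naming rule but uneven. It was at 3.01 to 3.91 CPM in RalA cKO, 113, 403, 154 and 4.11 CPM in RalAB cKO, and 157 and 213 CPM in control 3 and 4. Its difference of 5.65 ± 1.31 (adjusted p = 0.0381) did not pass without any 1 of RalAB cKO 1, 2 and 3 and the 4 RalA cKO libraries.

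Genes of other immune cells were mostly too low to be tested. Of 16 genes of monocytes, other macrophages and granulocytes 15 were too low to be tested and 3 were at 0 in all 8 libraries. Mrc1 was at 0.707 to 1.66 CPM in RalA cKO and 1.67 to 2.67 CPM in RalAB cKO and did not pass (0.85 ± 0.37, adjusted p = 0.175). The list held 0.000201% to 0.000464% of counts in RalA cKO and 0.000403% to 0.000612% in RalAB cKO. None of the 13 lymphocyte genes could be tested, and 4 of them were at 0 in all 8 libraries. Haemoglobin RNA was present in every library, with Hba-a1 at 32.6 to 72.5 CPM and Hbb-bs at 20.9 to 38.9 CPM over the 8 libraries, and 0 of 5 tested erythroid genes were called.

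Lysosomal genes rose in part. Of 30 tested genes 13 rose, 1 fell and 16 did not pass, with a median of 0.28. The fall was called only with all 8 libraries or without RalAB cKO 3 or RalA cKO 3, among the fits that leave out a library. Ctss, a cathepsin of antigen-presenting cells, was at 14.7, 9.73, 16.2 and 15.4 CPM in RalA cKO and at 78.2, 83.9, 129 and 120 CPM in RalAB cKO (2.87 ± 0.21, adjusted p = 2.86e-05). Ctsh was at 2.68 to 4.28 CPM against 14.9 to 23.8 CPM (2.59 ± 0.21, adjusted p = 2.48e-05). Ctsd, the main aspartic protease of lysosomes and chosen after its value was seen, was at 608 to 714 CPM against 1160 to 2210 CPM (1.49 ± 0.17, adjusted p = 0.00018). The part of the raised microglial RNA in this list was not tested.

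**Figure D4:**
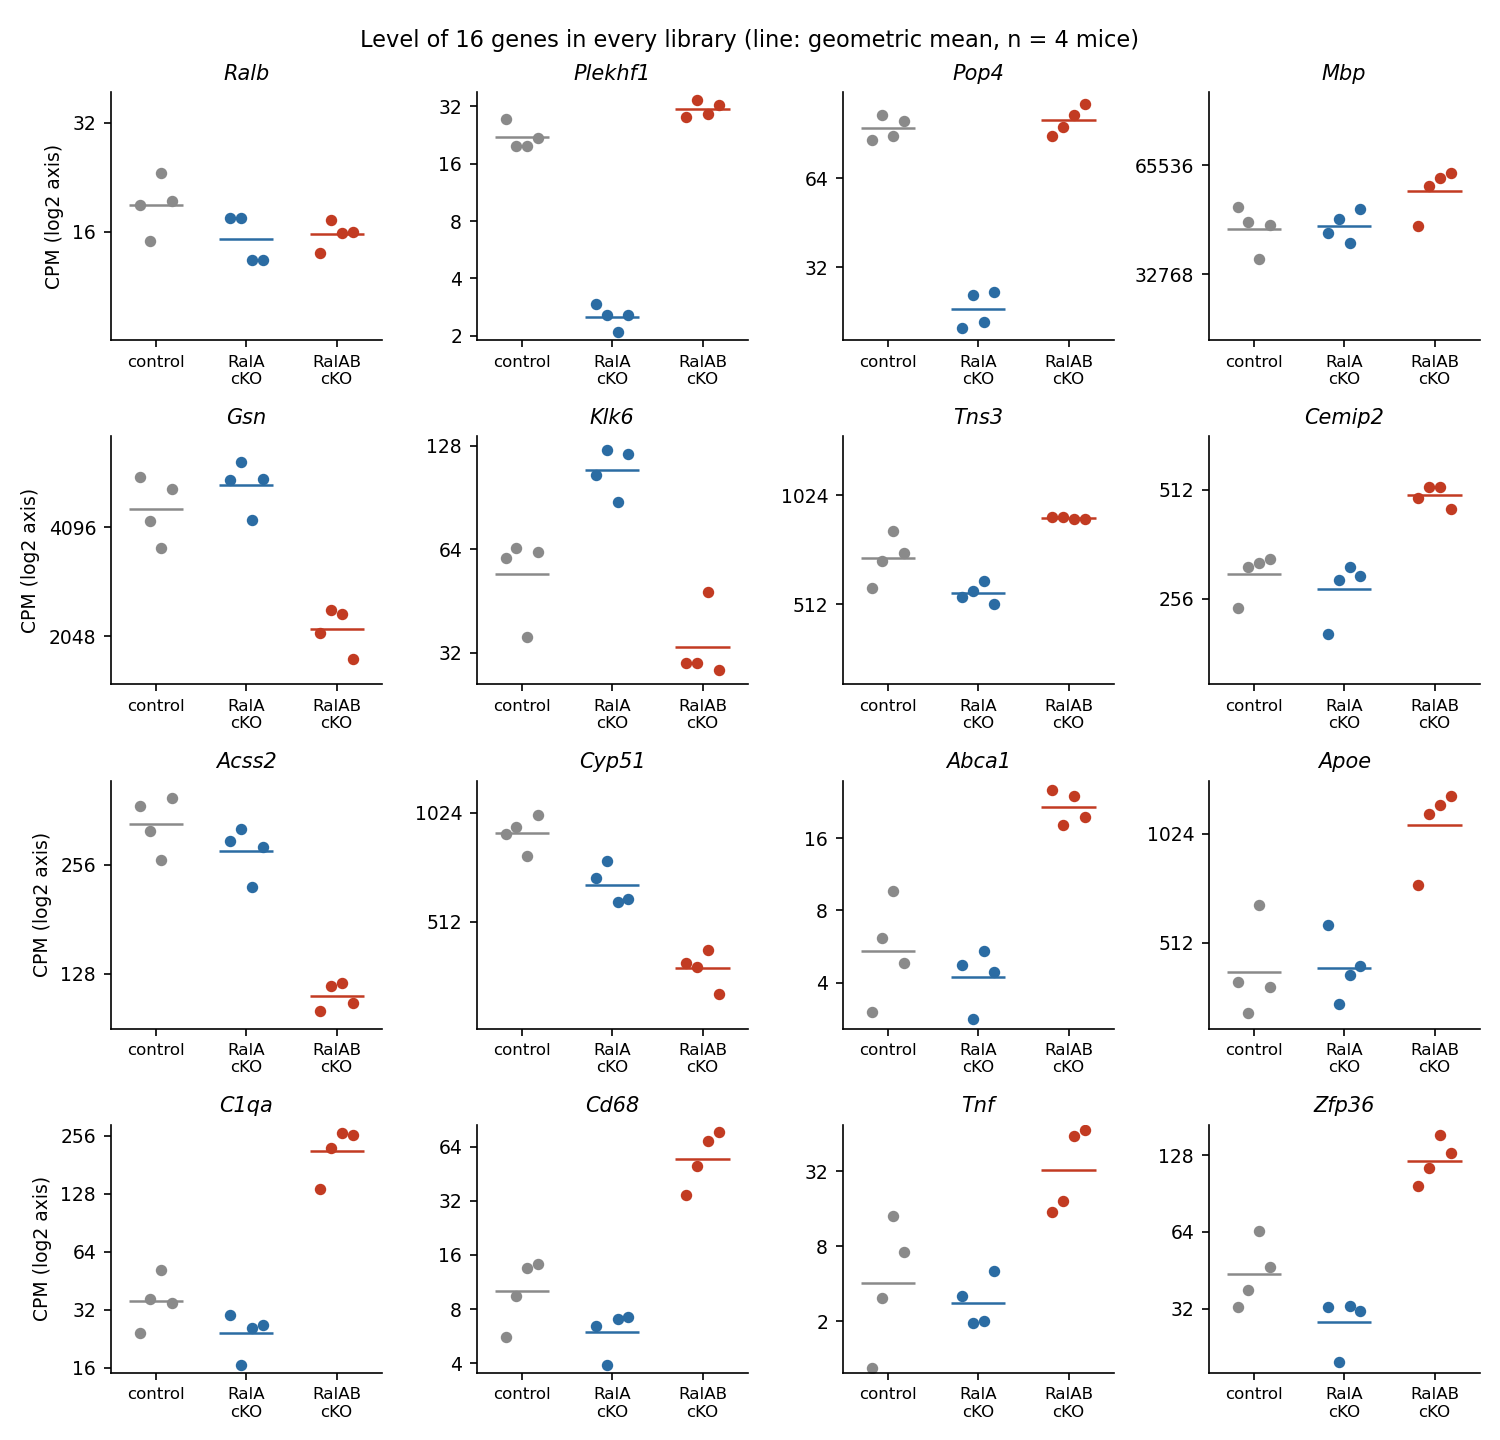
Level of 16 genes (CPM on a log2 axis) in each of the 4 control (grey), 4 RalA cKO (blue) and 4 RalAB cKO (red) libraries, with the geometric mean as a line. Plekhf1 and Pop4 are low in RalA cKO, Gsn, Klk6, Acss2 and Cyp51 have their lowest mean in RalAB cKO, and C1qa, Cd68, Tnf, Apoe, Abca1 and Zfp36 have their highest mean in RalAB cKO.

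Immediate early genes, which cells switch on within minutes of a stimulus, were higher. Of 23 tested genes 15 rose, 0 fell and 8 did not pass, with a median of 1.26. The list held 0.078%, 0.0603%, 0.0724% and 0.0774% of counts in RalA cKO and 0.113%, 0.123%, 0.142% and 0.145% in RalAB cKO, and control 3 at 0.111% came near the latter. Zfp36, which speeds the decay of cytokine mRNA, was at 32.5, 19.7, 32.7 and 31.2 CPM in RalA cKO and at 96.9, 114, 153 and 130 CPM in RalAB cKO (2.08 ± 0.18, adjusted p = 4.96e-05). Atf3, a stress-induced transcription factor, was at 4.60 to 7.16 CPM against 23.3 to 52.4 CPM (2.58 ± 0.28, adjusted p = 0.00018). Ier3 was at 3.06 to 5.81 CPM against 10.8 to 22.1 CPM (2.11 ± 0.27, adjusted p = 0.000279). Dusp1, a phosphatase that turns off MAP kinases, was at 12.9, 8.75, 14.3 and 20.4 CPM against 33.7, 35.6, 42.8 and 38.2 CPM (1.41 ± 0.20, adjusted p = 0.000819). RalAB cKO libraries 3 and 4 were the highest in this list and also in the microglia list, and which cells carried the rise was not tested.

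The window of Dusp1 (chr17:26508423-26508722, minus strand, GRCm38.p6, RefSeq) is shown as an example of the cAMP response element, which CREB and ATF factors bind and which is in capitals:
Dusp1: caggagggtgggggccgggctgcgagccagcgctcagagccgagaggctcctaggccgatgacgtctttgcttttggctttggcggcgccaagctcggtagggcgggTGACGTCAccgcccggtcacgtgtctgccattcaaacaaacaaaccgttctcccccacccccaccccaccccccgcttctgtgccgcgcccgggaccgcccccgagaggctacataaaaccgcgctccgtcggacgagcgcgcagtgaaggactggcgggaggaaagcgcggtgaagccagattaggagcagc
The letters TGACGTCA occurred in 3 of 15 windows of the raised immediate early genes (20%), against 1.79% of all 32851 windows, and the other two were those of Btg2 and Maff. The NF-kB letters occurred in 5 of the same 15 (33.3%), against 8.46%. Windows of listed genes that did not rise were not counted here either, so whether the letters mark the raised genes was not tested. A match of letters is not a bound site.

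Stress programmes moved little as lists. In the integrated stress response and serine synthesis 4 of 20 tested genes rose and 1 fell. The risers were led by Atf3 above and Cebpb, a factor that myeloid cells also use, at 0.268 to 0.783 CPM against 2.00 to 7.30 CPM (3.11 ± 0.47, adjusted p = 0.000958). Phgdh, the entry enzyme of serine synthesis, was at 436, 468, 348 and 446 CPM in RalA cKO and at 202, 261, 259 and 254 CPM in RalAB cKO (-0.80 ± 0.11, adjusted p = 0.000611). In the unfolded protein response 1 of 22 genes rose, Edem1 (0.38 ± 0.09, adjusted p = 0.0114), and 1 fell. Among p53 targets and death genes 2 of 19 rose and 1 fell. The fall was Phlda3, an inhibitor of AKT, at 314 to 432 CPM against 211 to 276 CPM (-0.59 ± 0.12, adjusted p = 0.00499). Controls, at 167 to 277 CPM, lay below RalA cKO and overlapped RalAB cKO. Edem1 and Phlda3 did not pass in the 5 libraries high in Y-linked genes. The fall in the unfolded protein response list ended without RalAB cKO 2 or 4 or RalA cKO 2, 3 or 4, and rises among p53 targets numbered 1 without RalAB cKO 2, 3 or 4 or RalA cKO 1, 2 or 3.

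Genes of the Ral pathway itself were mostly not called. Of 19 tested regulators and effectors 3 rose and 0 fell, with a median of 0.19. Flna, the actin crosslinker filamin A and a Ral effector, was at 39.2, 35.6, 49.1 and 36.1 CPM in RalA cKO and at 63.6, 64.8, 78.4 and 69.7 CPM in RalAB cKO (0.79 ± 0.12, adjusted p = 0.00104). Pld1, a phospholipase D that RalA binds, was at 48.6 to 62.8 CPM against 71.0 to 83.0 CPM (0.53 ± 0.11, adjusted p = 0.00596), and did not pass in the 5 libraries high in Y-linked genes. Among 9 exocyst subunits 1 rose: Exoc4, at 84.3, 84.5, 84.1 and 92.4 CPM against 99.8, 107, 111 and 101 CPM. Its difference of 0.28 ± 0.08 (adjusted p = 0.0358) did not pass without any 1 of RalAB cKO 2, 3 and 4 and the 4 RalA cKO libraries.

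Fusion and traffic genes changed one by one. Of 26 SNARE genes 3 rose and 3 fell. Stx6, a SNARE of the trans-Golgi network and endosomes, was at 145, 154, 120 and 148 CPM in RalA cKO and at 82.8, 101, 92.0 and 78.4 CPM in RalAB cKO (-0.67 ± 0.11, adjusted p = 0.00121). Rises in this list numbered 1 without RalAB cKO 3 or 4 or RalA cKO 2 or 4. Of 26 Rab GTPases 4 rose and 2 fell. Rab37 was at 36.2, 38.2, 24.5 and 35.6 CPM against 17.7, 15.8, 15.3 and 11.9 CPM (-1.14 ± 0.16, adjusted p = 0.000607), and Rab3d, a Rab of secretory granules, at 4.54 to 8.33 CPM against 13 to 14.5 CPM (1.15 ± 0.19, adjusted p = 0.00144). Falls among Rab genes numbered 1 without RalAB cKO 2, 3 or 4 or RalA cKO 2 or 4.

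Septins, filaments that line the innermost face of myelin, were lower. Of 13 tested genes of septins and their partners 5 fell and 1 rose, with a median of -0.40. The summed share was 0.316%, 0.308%, 0.320% and 0.329% in RalA cKO and 0.259%, 0.245%, 0.233% and 0.218% in RalAB cKO, with controls at 0.252% to 0.273%. Sept8 was at 519, 476, 474 and 517 CPM in RalA cKO and at 284, 280, 247 and 220 CPM in RalAB cKO (-0.94 ± 0.10, adjusted p = 0.000107). Sept9 was at 43.6 to 57.0 CPM against 22.1 to 27.7 CPM (-1.09 ± 0.12, adjusted p = 0.000101). Anln, anillin, which loads septins onto membranes, was at 48.4 to 68.1 CPM against 13.5 to 29.8 CPM (-1.35 ± 0.21, adjusted p = 0.00194). Sept11 went against them, at 43.1 to 59.6 CPM against 74.9 to 106 CPM (0.89 ± 0.13, adjusted p = 0.00094). Among actin and annexin genes 7 of 27 rose and 4 fell. Those that rose included Anxa3 (2.86 ± 0.28, adjusted p = 7.01e-05) and Capg (2.52 ± 0.36, adjusted p = 0.000664), at no more than 2.63 CPM in any RalA cKO library. Falls among actin and annexin genes numbered 2 without RalAB cKO 2 or RalA cKO 4. In the 5 libraries high in Y-linked genes 4 of these genes rose and 1 fell.

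Genes of energy metabolism differed by list. No gene of 28 nuclear genes of oxidative phosphorylation was called, with a median of -0.09 (edgeR), and in fits without RalA cKO 3 there was 1 fall. Of 22 glycolysis genes 2 rose and 3 fell, and of the 13 genes encoded in mitochondria 4 fell, with a median of -0.40 and no log2 difference above 0. mt-Co3, a subunit of cytochrome oxidase, was at 4270, 5480, 5120 and 5760 CPM in RalA cKO and at 2950, 2900, 3260 and 3420 CPM in RalAB cKO (-0.72 ± 0.11, adjusted p = 0.00118). Controls were at 2090 to 3650 CPM, so RalA cKO was the highest of the 3 groups. Falls among these 13 genes numbered 7 without RalA cKO 1, 2 without RalAB cKO 3 or RalA cKO 3 or 4, and 1 without RalAB cKO 2 or 4 or RalA cKO 2. They numbered 8 by DESeq2 and 1 with the 4 Y-linked genes as a covariate. For glycolysis, rises numbered 4 without RalAB cKO 1 and falls 1 without RalAB cKO 3 or 4.

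Astrocyte genes were lower or not called. Of 19 tested genes 9 fell, 0 rose and 10 did not pass, with a median of -0.64. Falls numbered 3 with summed Y-linked expression as a covariate, 4 with length offsets and 14 with limma-voom quality weights. The groups did not overlap in that covariate, so it can take up part of the group difference. Of the genes named next, Gjb6 and Slc6a11 did not pass with that covariate and Gja1 did not pass with length offsets. The summed share was 0.102%, 0.0632%, 0.0751% and 0.0666% in RalA cKO and 0.0681%, 0.0576%, 0.0449% and 0.0450% in RalAB cKO, and the groups overlapped. Gja1, connexin 43, was at 34.9, 28.8, 29.0 and 28.5 CPM in RalA cKO and at 18.8, 17.2, 10.6 and 12.8 CPM in RalAB cKO (-1.03 ± 0.18, adjusted p = 0.0021). Gjb6, connexin 30, was at 4.16 to 7.86 CPM against 1.12 to 2.45 CPM (-1.67 ± 0.32, adjusted p = 0.00416). Slc6a11, a GABA transporter, was at 129 to 193 CPM against 71.1 to 109 CPM (-0.80 ± 0.16, adjusted p = 0.0058). Of 16 neuron genes 2 fell and 1 rose, with a median of -0.48. The summed share of this list went the other way, at 0.0802% to 0.087% in RalA cKO and 0.0915% to 0.102% in RalAB cKO. Controls held 0.0924% to 0.116%. Only 1 of the 16 tested genes, Elavl3, had a log2 difference above 0, so the higher sum was not a rise across the list. Its transcript Elavl3-201 had 6325 to 9430 estimated counts in RalA cKO and 10240 to 10900 in RalAB cKO. Tubb3, a neuronal tubulin, was at 46.7, 38.4, 23.8 and 34.0 CPM against 14.1, 15.3, 12.9 and 14.5 CPM (-1.33 ± 0.18, adjusted p = 0.000417). Uchl1, a ubiquitin hydrolase, was at 87.8 to 139 CPM against 59.3 to 69.3 CPM (-0.89 ± 0.13, adjusted p = 0.000827). The rise was Elavl3 (0.41 ± 0.09, adjusted p = 0.00857), which did not pass in the 5 libraries high in Y-linked genes.

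The largest falls by the naming rule were in genes of several kinds. Spock3, a matrix proteoglycan, was at 29.9, 39.1, 30.1 and 32.2 CPM in RalA cKO and at 12.3, 7.43, 7.83 and 3.65 CPM in RalAB cKO (-2.07 ± 0.29, adjusted p = 0.00095). Col6a2, a collagen VI chain, was at 20.5 to 23 CPM against 3.65 to 9.31 CPM (-1.83 ± 0.24, adjusted p = 0.000333). Mgst3, a microsomal glutathione transferase, was at 34.4 to 56.8 CPM against 12.7 to 17.7 CPM (-1.79 ± 0.17, adjusted p = 5.45e-05). Myo1e, a class I myosin, was at 117, 106, 99.2 and 112 CPM against 27.8, 42.6, 34.0 and 31.9 CPM (-1.67 ± 0.12, adjusted p = 1.71e-05). Controls lay with RalA cKO in these last 3, at 16.5 to 25.3, 42.9 to 64.6 and 74.6 to 114 CPM. Pla2g16, a phospholipase, was at 91.8 to 115 CPM against 28.3 to 38.9 CPM (-1.58 ± 0.12, adjusted p = 1.71e-05).

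The smallest adjusted p among the largest rises belonged to Plekhf1, an endosomal protein that binds phosphoinositides (chromosome 7, 38216972 to 38228016). It was at 2.95, 2.56, 2.09 and 2.56 CPM in RalA cKO and at 28.1, 34.6, 29.0 and 32.5 CPM in RalAB cKO (3.61 ± 0.15, adjusted p = 2.88e-07). Controls were at 19.8 to 27.4 CPM, so the low group was RalA cKO. Its neighbour Pop4, a subunit of ribonuclease P (38261996 to 38271423), showed the same pattern. Pop4 was at 20, 25.8, 20.9 and 26.5 CPM in RalA cKO, at 89.1, 95.5, 105 and 114 CPM in RalAB cKO and at 86.5 to 105 CPM in controls (2.11 ± 0.12, adjusted p = 3.22e-06). On the other side 1600014C10Rik (38183217 to 38197568) was at 7.47 to 9.90 CPM against 17 to 22 CPM, with controls at 16.8 to 22.1 CPM (1.25 ± 0.15, adjusted p = 0.000177). Uri1 differed by 0.43 ± 0.12 (adjusted p = 0.0302) and did not pass without RalAB cKO 2 or 3 or RalA cKO 1 or 2. Of 6 tested genes within 1 Mb of Plekhf1, 3 were called (50.0%), and of 38 within 5 Mb, 11 (28.9%), against 12.4% over all genes. The centre was itself chosen for its small p. Calls within 5 Mb went both ways, and the median of the 38 was -0.06. Vstm2b fell by 1.63, and Cebpa rose by 2.92 with controls at 2.64 to 3.57 CPM and RalA cKO at 2.36 to 2.86 CPM. The pattern of Plekhf1 and Pop4 was thus not that of the whole window. All neighbours named here were chosen after their values were seen.

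Around Ralb 1 of 17 tested genes within 5 Mb was called (5.88%), where the share over all genes was 12.4%. With so few genes this count cannot be told apart from that share. That gene was Tmem37, a calcium channel subunit, at 0.177 to 0.447 CPM in RalA cKO and 1.26 to 3.57 CPM in RalAB cKO (2.94 ± 0.46, adjusted p = 0.00108). Within 10 Mb 3 of 33 were called (9.09%), among them Lypd1, which also stood among the largest falls at 10.7 to 21.2 CPM against 3.36 to 6.46 CPM (-1.59 ± 0.25, adjusted p = 0.0013).

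**Figure D5:**
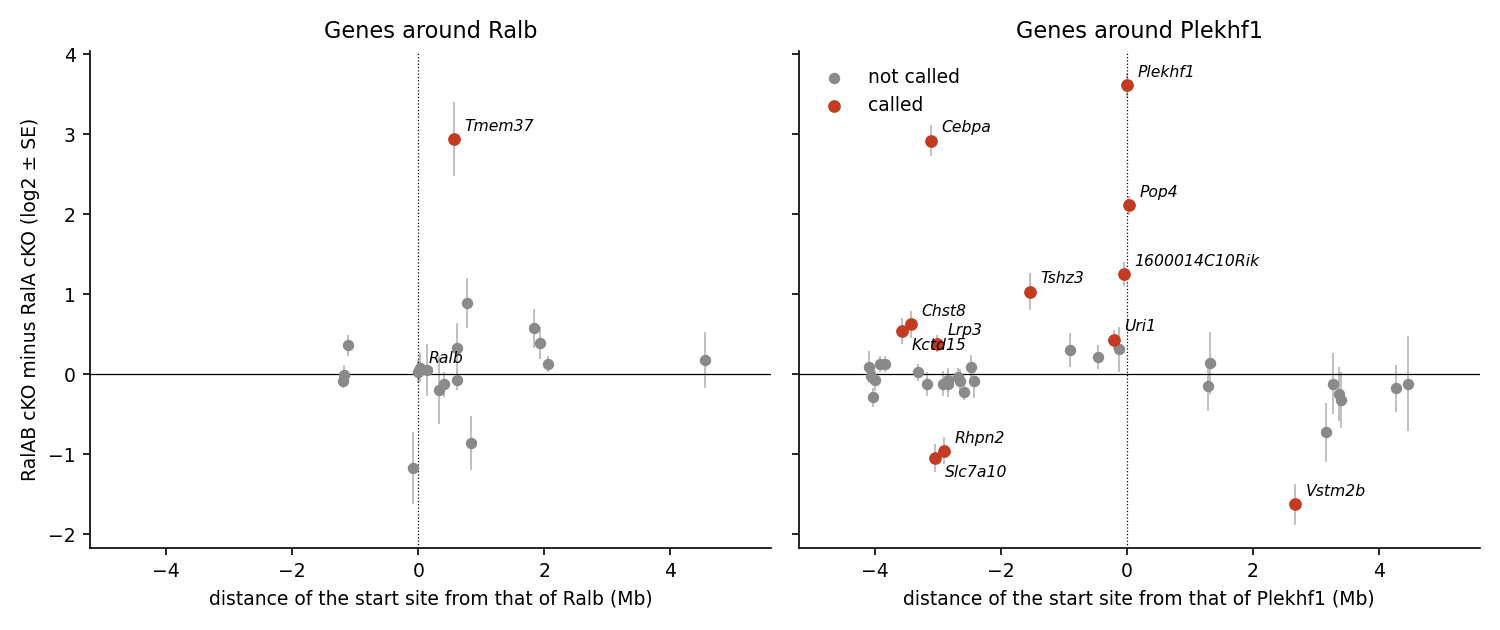
Log2 difference of RalAB cKO from RalA cKO with its SE (y axis) for tested genes within 5 Mb of the start sites of Ralb (left) and Plekhf1 (right), against distance in Mb. Red points passed the test, and beside Plekhf1 they include Pop4 at 2.11 and 1600014C10Rik at 1.25, while beside Ralb the only red point is Tmem37 at 2.94.

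At the level of transcripts, 521 of 27507 tested (1.89%) passed, 334 higher and 187 lower. They fell in 474 genes, of which 436 were also called as genes. No gene had called transcripts in opposite directions that each made up at least 10% of it. Counts of transcripts rested on single libraries more than counts of genes did, from 138 without RalAB cKO 3 to 398 without RalAB cKO 1, and 3000 transcripts had an unadjusted p under 0.05. Among myelin transcripts, chosen after their values were seen, Mog-201 (-0.88 ± 0.10, adjusted p = 0.00618), Opalin-201 (-1.13 ± 0.13, adjusted p = 0.00725) and Ermn-201 (-1.32 ± 0.16, adjusted p = 0.00889) carried nearly all TPM of their genes and fell as the genes did. Nfasc-203 and Nfasc-202 rose together, by 0.64 ± 0.09 (adjusted p = 0.0168) and 0.55 ± 0.09 (adjusted p = 0.0264). Mbp-211 was 21.7% to 24.9% of Mbp TPM in RalA cKO and 16% to 18.3% in RalAB cKO, and its level did not pass (-0.11 ± 0.10, adjusted p = 0.875). Mbp-212 was 29.5% to 32.2% against 32.8% to 36.5% and did not pass either (0.49 ± 0.13, adjusted p = 0.154). The shares of Mbp-211 and Mbp-212 did not overlap between the groups. Those of Mbp-215 did, at 36.9% to 40% in RalA cKO and 38.8% to 39.9% in RalAB cKO. How often such shares fail to overlap over all transcripts was not counted, and the differences in shares were not tested.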

How the data were processed

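RNA-seq of sorted spinal cord cells from 8 mice was analysed. The authors deposited, for every transcript, its effective length, estimated counts and TPM. The submitters' processing notes name kallisto 0.44, Trimmomatic 0.36 and the build GRCm38.p6, and per the labels libraries came from a stranded mRNA kit and 1 mouse each. Estimated counts were summed over GENCODE vM21 genes and rounded. Of 121843 transcripts 121104 matched by identifier, and the other 739 held 0.219% to 0.277% of counts. The edgeR (4.0.16) filter kept genes with a minimum count of 10 and a total of 15, sizes were scaled by TMM, and robust quasi-likelihood F tests with Benjamini-Hochberg adjustment at 0.05 compared the groups. An SE is the log2 difference over the square root of F. The common biological coefficient of variation was 0.19. The same test was run per transcript, where the uncertainty of dividing reads among transcripts is not included. Deposited TPM values gave transcript shares, and deposited effective lengths (another column) entered only the length offsets. Libraries of a group differed far beyond sampling noise (chi-square per degree of freedom 9.098 to 31.84).

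Members and gene lists were chosen with earlier results of these data known. Named were Rala and Ralb, the 12 largest rises and 12 largest falls of called protein-coding genes with at least 5 mean CPM (without predicted, Rik, Xist and Y-linked genes), up to 4 called genes per list by p, and the 2 most abundant of a list without calls. Alternatives were other scaling (DESeq2 1.42.0 size factors, library totals), other filters, DESeq2, limma-voom (3.58.1) with and without quality weights, all 12 libraries, the mouse number as a block, length offsets, nuclear protein-coding genes, summed Y-linked CPM as a covariate, and leaving out each library. Added after seeing the data were 4 Y-linked genes as a covariate and the 5 libraries high in them. Mouse numbers are names and did not pair the libraries. Depth covers counting error only. Some genes of the lists are not reported here by name.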

Additional observations from a re-analysis of the deposited data

Results flagged for a closer look

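In each group of 4, the gap between the most extreme library and its nearest neighbour was set against the range of the group for the 136 named genes, 272 groups in all. In 15 groups that gap was above Dixon's critical value at 95%, where chance gives about 1 in 20 groups. In RalA cKO 1 these were Rala at 33.1 CPM, C1ql1 at 77.2 CPM, H2-D1 at 28.0 CPM, mt-Nd1 at 1190 CPM and Gja1 at 34.9 CPM. Zfp36 at 19.7 CPM was low in RalA cKO 2, and Ermn at 268 CPM was high in RalA cKO 3. In RalA cKO 4, Cd83 at 3.06 CPM and Pttg1 at 6.62 CPM were low and Exoc4 at 92.4 CPM was high. RalAB cKO 1 stood apart in Bst2 at 9.21 CPM and Phgdh at 202 CPM, RalAB cKO 3 in Mgst3 at 17.7 CPM and Klk6 at 48.1 CPM, and RalAB cKO 4 in Pla2g16 at 28.3 CPM.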

How the results depend on the processing

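Of 126 called named genes, 95 passed in every alternative other than the 2 added after seeing the data and 89 with those included, and 0 changed direction. The 1614 changed genes became 1020 with the sum of Y-linked genes as covariate and 2428 with limma-voom quality weights, and the 650 lower genes became 373 and 1081. That sum, per M counts of the library without scaling, was 75.41 to 180.7 CPM in RalA cKO and 32.46 to 74.05 CPM in RalAB cKO. The groups did not overlap in it, so this covariate can take up part of the group difference itself. It was 67.45 CPM in RalAB cKO 1, where the 4 Y-linked genes summed to 0.445 CPM. Calls lost with it therefore cannot be read as an effect of sex. In the libraries high in Y-linked RNA 417 were lower. Leaving out 1 library gave 1122 to 1925 changed and 408 to 724 lower genes. Transcripts changed numbered 1516 by DESeq2 and 138 to 398 with a library left out. With the mouse number as a replicate block 1291 genes and 0 transcripts passed. Numbers did not pair the libraries: deviations of same-numbered libraries correlated at -0.126, 0.121, -0.213 and 0.0894. Within 10 Mb of Ralb 3 genes were called. Uncalled genes near no difference changed sign: with summed Y-linked expression Rala gave 0.07, Ralb -0.15, Atp5b -0.08, Sox10 -0.05 and Hbb-bs -0.13. With the 4 Y-linked genes Ralb gave -0.00, Atp5a1 0.03 and Hbb-bs -0.05, and Atp5a1 gave 0.10 in the libraries high in them. With quality weights Pou3f1 gave 0.03 and Hbb-bs -0.05. With a library left out Ralb ranged from -0.04 to 0.13, Atp5b from -0.03 to 0.12, Atp5a1 from -0.10 to 0.06, Pou3f1 from -0.16 to 0.10 and Hbb-bs from -0.07 to 0.21. The cause was not tested. Library totals put 64.2% of calls higher, against 59.7%, and moved the median of all genes to 0.00254. Genes of a few CPM rest on few counts, and 4 mice per group limit small changes.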
